A study of Mus musculus with 12 samples.

Results

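Medium conditioned by inflammatory macrophages was compared with medium conditioned by naive macrophages on primary mouse aortic smooth muscle cells. The comparison takes every library whose title names one of these 2 media. That is 8 of the 12 libraries in the series, 4 for each medium, and 16140 of 55822 genes in the table held enough counts to be tested. The description below turns from the best-known interferon genes to receptors, transcription factors, metabolic enzymes and transcripts that were nearly lost. Interferon genes were set aside by symbol only, when the largest rises were picked. Whether the genes described respond to interferon was not tested.

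Smooth muscle cells form the contractile layer of the artery wall, and in injured or inflamed vessels they can leave the contractile state, divide, secrete matrix or take on an inflammatory programme. Bone marrow-derived macrophages (BMDMs) primed with interferon gamma (IFNγ) and triggered with lipopolysaccharide (LPS), a bacterial cell wall product, secrete cytokines that act on neighbouring cells through surface receptors. How a cell then responds depends on which receptors, transcription factors and metabolic enzymes it makes, and these are themselves under transcriptional control.

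Per the labels' protocols, the cells of both groups were held for 48 h in medium with 0.3% fetal bovine serum before the experiment. The macrophages for the IFNγ/LPS medium received 20 ng/mL IFNγ overnight and then 100 ng/mL LPS for 4 h, while the naive ones received neither. Both kinds were washed 4 times with PBS and given fresh medium with 0.3% serum and 10 ng/mL macrophage colony-stimulating factor (M-CSF). This conditioned medium (CM) was harvested after 24 h, spun to remove debris and placed on the smooth muscle cells for 24 h. Macrophage products and M-CSF were therefore present in the naive CM as well. A further group of 4 libraries from cells in regular medium entered the model for its estimate of the spread. Its levels are given side by side where they help. No serum level, starvation time or M-CSF dose was recorded here for that group. It may therefore differ from both CM groups in these as well as in macrophage products. The titles call the libraries biological replicates but do not say whether each had its own animal or culture, so the p-values rest on the spread among libraries, which may be technical. Strain, sex and age of the mice were not stated in the labels used here.

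Libraries held 28542613 to 56323683 counts in naive CM and 40270540 to 44607657 in IFNγ/LPS CM. Pearson's correlation of log2 levels across genes was 0.9967 to 0.9982 within the naive CM group, 0.9972 to 0.9979 within the IFNγ/LPS CM group and 0.8889 to 0.8937 between the groups. Levels are counts per 1000000 (CPM) of the library total scaled by the trimmed mean of M-values (TMM), and ± is the SD over 4 libraries unless stated. CPM is not divided by gene length, so it compares a gene between groups and not one gene with another. The TMM factors were 1.078 to 1.108 in naive CM and 0.8335 to 0.8421 in IFNγ/LPS CM. Over all genes tested the median log2 fold change with TMM was 0.004, and with library totals it was -0.383, so a value below applies relative to the typical gene.

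The smooth muscle label was checked first. Acta2, smooth muscle actin, stood at 220.2 ± 8.05 CPM in naive CM and 77.3 ± 3.60 CPM in IFNγ/LPS CM, and Cald1, the actin-binding caldesmon, at 453 ± 35.1 and 118 ± 8.86 CPM. The late contractile markers Myh11 and Cnn1 were under 1 CPM in all 8 libraries. The summed level of 10 smooth muscle markers was 711 to 802 CPM in naive CM and 235 to 254 CPM in IFNγ/LPS CM, and 6 of the 10 fell at least 2-fold. Of 14 macrophage markers 5 had enough counts to be tested and all 5 rose at least 2-fold. The list's summed level was 19.7 to 21.4 CPM in naive CM and 891 to 1003 CPM in IFNγ/LPS CM, of which Mpeg1, a pore-forming protein, made up 874 ± 50.6 CPM. The other four rises were of Cd68 (from 1.07 ± 0.170 to 6.19 ± 1.096 CPM), Cd14 (from 18.7 ± 0.831 to 42.9 ± 3.56 CPM), Csf1r (from 0.203 ± 0.0873 to 4.62 ± 0.515 CPM) and Lyz2 (from 0.0785 ± 0.0888 to 0.472 ± 0.153 CPM). The defining leukocyte and macrophage genes Ptprc, Adgre1, Itgam, Fcgr1, Aif1, Tyrobp, Spi1 and Laptm5 had means under 0.05 CPM in both groups. Of 9 adventitial fibroblast markers 3 rose and 3 fell at least 2-fold, with a summed level of 2055 to 2228 CPM in naive CM and 6830 to 7507 CPM in IFNγ/LPS CM, carried mostly by Dcn (1595 ± 74.5 and 4674 ± 172 CPM) and Ly6a (215.2 ± 9.14 and 2379 ± 138 CPM). Dpt, another marker of that list, fell from 9.87 ± 0.491 to 0.257 ± 0.168 CPM. Of 10 endothelial markers 5 were tested, 1 rose and 2 fell at least 2-fold, with a summed level of 1.73 to 2.09 CPM in naive CM and 3.01 to 3.55 CPM in IFNγ/LPS CM. The rise was of Tek, the angiopoietin receptor, from 0.148 ± 0.0777 to 2.18 ± 0.331 CPM. The lymphocyte markers summed to under 0.1 CPM in all 8 libraries. In bulk RNA, fewer cells of a type and less RNA per cell cannot be told apart.

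By the edgeR quasi-likelihood test at a Benjamini-Hochberg adjusted p threshold of 0.05, 11611 genes changed, which is 71.9% of those tested. Of these 5830 were higher (36.1%) and 5781 lower (35.8%) in IFNγ/LPS CM. With library totals in place of TMM the split was 3279 higher and 9371 lower. A change of at least 2-fold was called for 4673 genes (29%), 2246 higher (13.9%) and 2427 lower (15%), and these shares are the background against which the lists below are read. The libraries of the groups did not overlap for 69.5% of all genes tested. Counts for lists cover only members with enough counts to be tested, and members below that limit were mostly at or near 0 in both groups.

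**Figure D1:**
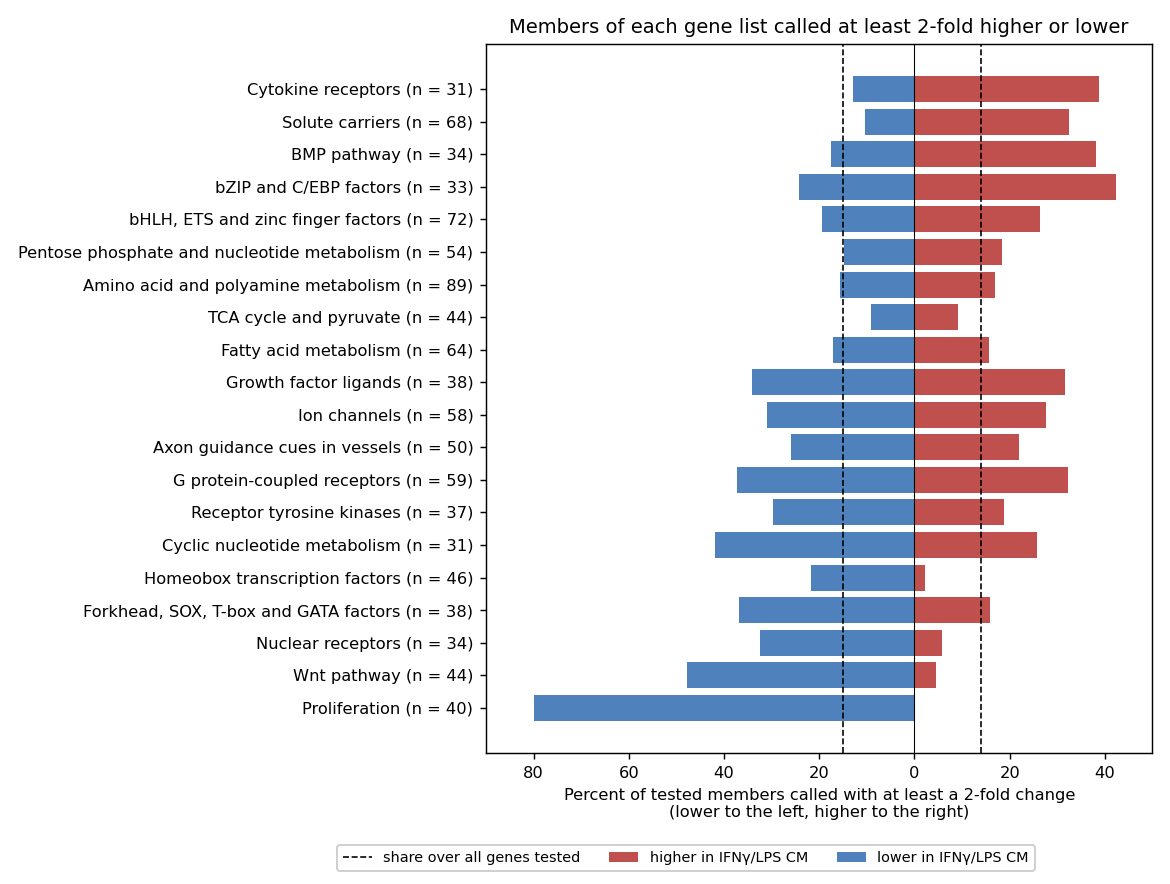
Percent of tested members of 20 gene lists called with at least a 2-fold change, higher in IFNγ/LPS CM to the right and lower to the left, with dashed lines at the shares over all genes tested (13.9% and 15%). Proliferation has the longest lower bar at 80.0% and no higher bar, and bZIP and C/EBP factors have the longest higher bar at 42.4%.

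A small set of transcripts was nearly lost in IFNγ/LPS CM. Counting genes whose mean was at least 5 CPM in naive CM and under 0.5 CPM in each IFNγ/LPS CM library gave 25 genes, and the same rule in the opposite direction gave 127. With library totals 43 genes met the first rule, and with a limit of 10 CPM 8 did. Of the 25, 24 were tested, and the exception was the pseudogene Rpl15-ps3, whose naive CM libraries ran from 0 to 18.2 CPM and overlapped those of IFNγ/LPS CM. Scara5 (chr14:65666403-65764826 on mouse build GRCm38, whole gene), a scavenger receptor that takes up ferritin, read 18.5, 20.8, 17.3 and 18.5 CPM in naive CM and 0.188, 0.0868, 0 and 0.0295 CPM in IFNγ/LPS CM. No library of one medium came near those of the other (ratio of summed counts 245, exact 95% interval 137 to 491, edgeR adjusted p = 1.37e-14). Vtcn1, the coinhibitory B7 family ligand B7-H4, went from 14.8 ± 0.687 to 0.254 ± 0.0577 CPM. Adh1, the class I alcohol dehydrogenase, went from 11 ± 0.616 to 0.259 ± 0.101 CPM, and Capn6, a calpain without protease activity that stabilises microtubules, from 14.8 ± 1.18 to 0.194 ± 0.167 CPM. Fam180a stood at 28.0 ± 1.01 and 0.347 ± 0.0526 CPM. Igfbp4, a binding protein that holds insulin-like growth factors, and the matrix protein gene Dpt were also among the 25, with 0.328 ± 0.129 CPM of Igfbp4 left from 10.5 ± 0.755 CPM.

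Several abundant transcripts fell by more than an order of magnitude without reaching that floor. Atp1b1 (chr1:164437109-164458355), the beta subunit of the sodium-potassium ATPase, measured 672, 657, 618 and 664 CPM in naive CM against 8.29, 9.06, 10.1 and 8.14 CPM. It fell 73.4-fold (log2 fold change -6.20, SE 0.06, adjusted p = 2.22e-23 by edgeR). Angpt2 (chr8:18690263-18741562), angiopoietin 2, a ligand of the endothelial receptor Tie2, measured 363, 352, 309 and 338 CPM in naive CM against 6.75, 7.12, 6.87 and 7.32 CPM. The groups lay far apart and the fall was 48.5-fold (log2 fold change -5.60, SE 0.07, adjusted p = 1.15e-22 by edgeR). Tfcp2l1, a transcription factor of the CP2 and grainyhead family, fell 46.5-fold from 437 ± 9.40 CPM to 9.41 ± 0.874 CPM. Pkhd1l1, a large fibrocystin-like membrane protein, fell 82.2-fold to 8.52 ± 0.735 CPM, and Aox3, an aldehyde oxidase, 37.1-fold to 1.53 ± 0.126 CPM. Aldh1a7, an aldehyde dehydrogenase, fell 97.9-fold to 1.12 ± 0.116 CPM, a value that depends on how reads were divided between it and its near copies.

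For some of these genes the level in regular medium, which may also differ in serum, starvation and M-CSF, was not that of naive CM. Pif1, a DNA helicase, was at 14.99 ± 0.595 CPM in naive CM, 0.373 ± 0.223 CPM in IFNγ/LPS CM and 2.56 ± 0.409 CPM in regular medium. Neurl1b, a ubiquitin ligase that acts on Notch ligands, was at 45.5 ± 1.08, 1.27 ± 0.366 and 10.2 ± 1.14 CPM in the same order. For both genes the naive CM libraries were the highest of the 12. Igfbp4 and Dpt also lay between the CM groups, at 2.61 ± 0.658 and 2.47 ± 0.378 CPM in regular medium. Their levels in naive CM were 10.5 ± 0.755 and 9.87 ± 0.491 CPM. Prss35, Olfml2a and Scara5 differed less between naive CM and regular medium, with Scara5 at 15.9 ± 0.830 and Olfml2a at 28.6 ± 1.21 CPM in regular medium beside 40.5 ± 2.20 CPM in naive CM.

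The drops that removed the most CPM touched the caveolar coat. Caveolae are small membrane pits built from caveolins and cavins that are dense on smooth muscle. Cavin2 (chr1:51289126-51302960) read 1588, 1574, 1450.3 and 1559 CPM in naive CM and 119.8, 145, 111 and 145 CPM in IFNγ/LPS CM. Cav1 (chr6:17306335-17341452), caveolin 1, read 1116, 1052, 1117 and 1080.0 CPM and 171, 175, 172 and 173 CPM. Both sets of libraries were well separated, with falls of 11.9-fold for Cavin2 (log2 fold change -3.57, SE 0.09, adjusted p = 3.09e-14 by edgeR) and 6.31-fold for Cav1 (log2 fold change -2.66, SE 0.04, adjusted p = 6.74e-21 by edgeR). Fhl1, a LIM domain protein of muscle, fell 10.1-fold to 112 ± 11.3 CPM. Other genes with large losses in CPM were Ahnak, a giant scaffold protein (2.54-fold), Thbs1, thrombospondin 1 (3.35-fold), Ccdc80, a matrix protein (4.25-fold), Timp2, an inhibitor of metalloproteinases (2.51-fold), and Sparc, a collagen-binding matrix protein (2.30-fold), all lower in IFNγ/LPS CM.

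**Figure D2:**
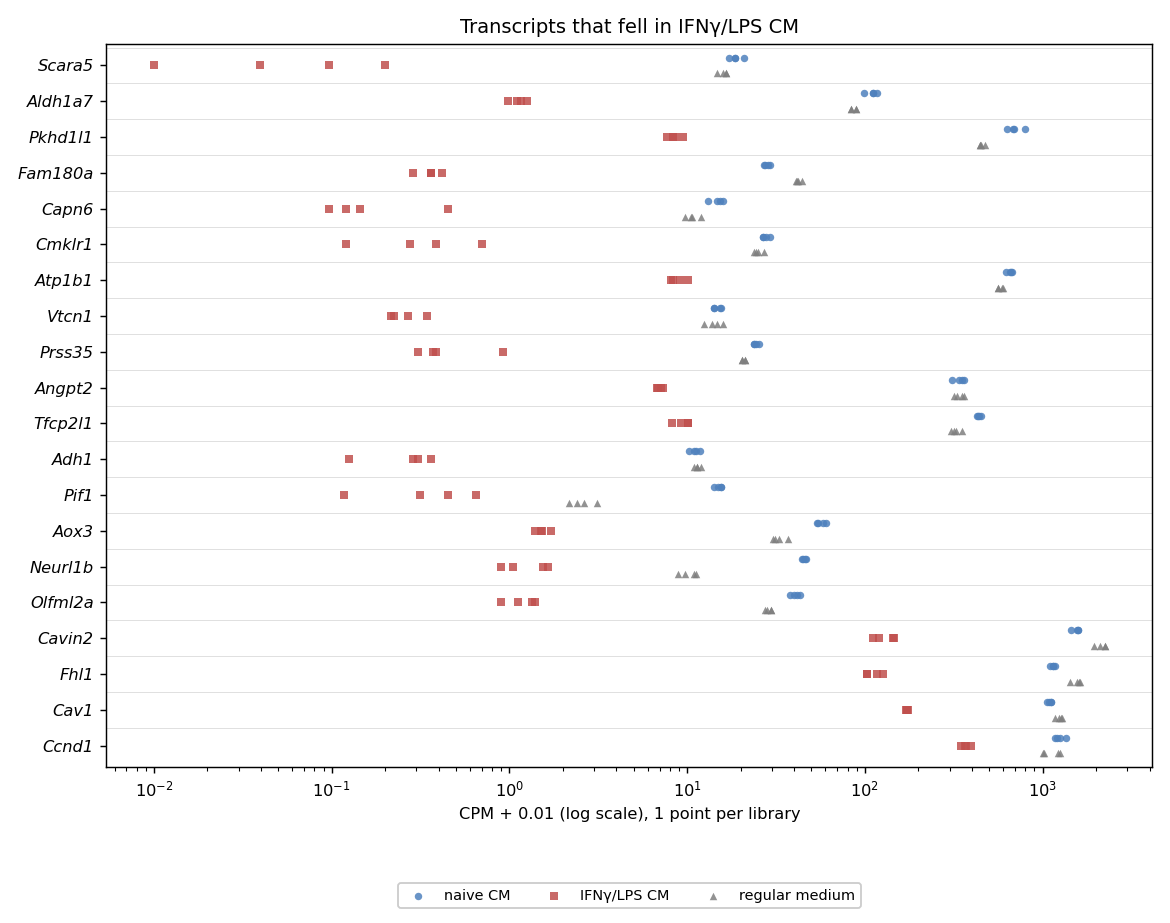
CPM plus 0.01 of 20 transcripts that fell, on a log axis with 1 point per library for naive CM, IFNγ/LPS CM and regular medium. The IFNγ/LPS CM points lie to the left of all naive CM points for every gene drawn, and the regular medium points of Pif1 and Neurl1b lie between those of the other groups.

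Among rises outside the interferon symbols, several transcripts went from nothing to readily measured. Acod1 (chr14:103046977-103056573), the enzyme that makes itaconate from the citric acid cycle intermediate cis-aconitate, had no count in any naive CM or regular medium library. The IFNγ/LPS CM libraries held 136, 122, 126 and 116 CPM, which is at least 8344-fold higher when the empty group is set at 3 counts. Acod1 is best known from activated macrophages, and in the same libraries the 5 tested macrophage markers were higher in IFNγ/LPS CM and the other 9 had means of at most 0.169 CPM. The part of macrophage RNA in this rise was not tested. Csf2, the growth factor GM-CSF, rose from 0.00802 ± 0.0160 to 16.7 ± 0.533 CPM (ratio of summed counts 3335, exact 95% interval 598 to 131770.0), and Ptges, which makes prostaglandin E2, from 0.101 ± 0.0851 to 46.6 ± 4.34 CPM (ratio of summed counts 550.1, exact 95% interval 343 to 945). Tnfsf10, the death ligand TRAIL, reached 29.6 ± 1.89 CPM from 7 counts in the 4 naive CM libraries.

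Other large rises included genes whose textbook sites of expression lie elsewhere, among them Pax5, Kcna4 and Gipr. Pax5 (chr4:44524757-44710487), the lineage factor of B cells, had no count in the 4 naive CM libraries and 11.7, 11.6, 11.1 and 12.3 CPM in the IFNγ/LPS CM libraries. It was at least 778-fold higher, and of 6 lymphocyte markers 5 had no count in either group, while Cd79a held 3 counts over the naive CM libraries and 1 over the others. Kcna4, a voltage-gated potassium channel, went from 0.00404 ± 0.00809 to 13.3 ± 1.58 CPM, and Gipr, the receptor of the gut hormone GIP, from 0.0241 ± 0.0481 to 15.2 ± 1.04 CPM. Slamf8, a surface receptor of the SLAM family, reached 41.7 ± 5.35 CPM. Epsti1 and Neurl3 reached 12.9 ± 0.949 and 57.7 ± 3.26 CPM. For Trim30c (73.5 ± 4.89 CPM), Sprr2e (59.1 ± 3.87 CPM) and Ms4a4d (45.7 ± 1.696 CPM) the split of reads among near copies in their gene clusters is uncertain. Of the genes that gained the most CPM, Mmp3, a matrix protease, rose 19.3-fold to 21538 ± 547 CPM and C3, the central complement component, 36.2-fold to 8963 ± 268 CPM.

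G protein-coupled receptors sense hormones, nucleotides, lipids and proteases, and in smooth muscle they set vessel tone. Of 114 receptors listed 59 were tested. Of these 19 rose and 22 fell at least 2-fold, against 13.9% and 15% of all genes, and the median log2 fold change was -0.30. The roles divided unevenly. Receptors of vasoactive peptides had 5 falls and 2 rises among 9 tested, and receptors of nucleotides and adenosine 3 rises and 1 fall (2 in 9 of 12 fits that left out a library) among 5. Listed adhesion class receptors had 5 falls and 1 rise among 13. The list leaves out part of the class, including receptors that rose from under 0.5 CPM to over 5 CPM. These counts therefore describe the listed members only.

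Receptors through which contraction is commonly evoked were among the falls. Adra1b, an alpha-1 adrenergic receptor, read 7.80, 6.601, 8.47 and 6.81 CPM in naive CM and 1.13, 1.01, 0.887 and 1.504 CPM in IFNγ/LPS CM. All naive CM libraries lay above all others and the fall was 6.55-fold (log2 fold change -2.71, SE 0.14, adjusted p = 1.96e-12 by edgeR). Npy1r, a receptor of the vasoconstrictor neuropeptide Y, fell 4.14-fold to 2.47 ± 0.160 CPM. Agtr1a, the main angiotensin II receptor, was low already in naive CM at 2.73 ± 0.239 CPM and stood at 0.212 ± 0.117 CPM (ratio of summed counts 12.98, exact 95% interval 8.99 to 19.4). F2r, the thrombin receptor PAR1, read 369, 352, 372 and 362 CPM and 116, 123, 123 and 123 CPM, a fall of 3.003-fold. Ednra, the endothelin A receptor, held 2 counts over the naive CM libraries, 4 over the others, and was not tested. F2rl1, the related receptor PAR2, fell 4.26-fold.

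Receptors of chemerin moved in opposite directions. Chemerin is a chemoattractant that signals through Cmklr1, while Ccrl2 binds it without signalling and presents it on the surface. Cmklr1 (chr5:113612354-113650426) read 26.5, 29.2, 26.7 and 27.6 CPM in naive CM and 0.377, 0.695, 0.111 and 0.265 CPM in IFNγ/LPS CM. Ccrl2 (chr9:111054486-111057519) read 3.51, 2.88, 2.54 and 4.39 CPM and 134, 123, 133 and 123 CPM. Neither gene's groups overlapped, and the changes were a fall with a ratio of summed counts 76.9, exact 95% interval 58.4 to 103.5 for Cmklr1 (edgeR adjusted p = 1.15e-12) and a rise of 38.6-fold for Ccrl2 (log2 fold change 5.24, SE 0.15, adjusted p = 8.40e-12 by edgeR). The level of the chemerin protein itself was not measured.

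Other receptors of this class rose. Adora2b, the low-affinity adenosine receptor that raises cyclic AMP, read 2.08, 1.55, 1.44 and 1.83 CPM in naive CM and 31.2, 29.5, 28.9 and 25.9 CPM in IFNγ/LPS CM, a rise of 16.7-fold (log2 fold change 4.05, SE 0.10, adjusted p = 1.92e-17 by edgeR). Htr2a, the contractile serotonin receptor, rose 10.7-fold to 10.6 ± 0.744 CPM, and P2ry2, a receptor of ATP and UTP, 4.41-fold to 10.2 ± 0.907 CPM. Hcar2, the receptor of niacin and the ketone body beta-hydroxybutyrate, reached 5.13 ± 0.526 CPM in IFNγ/LPS CM from no count in naive CM, at least 342-fold higher. Ackr3, a scavenger receptor for the chemokine CXCL12, rose 19.0-fold from 13.8 ± 1.1 to 262 ± 4.76 CPM. Of the adhesion class, Adgrg2 rose 4.97-fold to 19.7 ± 1.80 CPM, whereas the latrophilin Adgrl1 fell 4.88-fold to 16.9 ± 0.775 CPM.

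Cytokine receptor chains leaned upward. Of 52 listed, 31 were tested, 12 rose and 4 fell at least 2-fold, and the median was 0.74 (0.35 with library totals, with 9 higher and 5 lower). The receptors of interleukin 13 changed most among those with clear levels. Il13ra2 (chrX:147383476-147429192), which binds interleukin 13 tightly and is often described as a decoy, read 0.333, 0.129, 0.225 and 0.153 CPM in naive CM. The IFNγ/LPS CM libraries held 88.9, 92.1, 86.1 and 94.2 CPM (ratio of summed counts 451, exact 95% interval 331 to 632, edgeR adjusted p = 2.97e-21). Il13ra1, the signalling chain, rose 31.9-fold from 21.2 ± 0.792 to 677 ± 30.4 CPM.

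Chains of the gp130 family, which serve interleukin 6, oncostatin M and leukaemia inhibitory factor, were also higher. Osmr, the oncostatin M receptor, read 88.4, 88.5, 90.2 and 85.9 CPM in naive CM and 834, 849, 893 and 840.2 CPM in IFNγ/LPS CM, 9.68-fold higher (log2 fold change 3.27, SE 0.04, adjusted p = 2.06e-22 by edgeR). Lifr rose 8.85-fold to 82.5 ± 2.21 CPM and the shared chain Il6st (gp130) 2.26-fold to 1473 ± 51.8 CPM. Il18rap, the accessory chain of the interleukin 18 receptor, rose 22.6-fold to 52.6 ± 1.40 CPM.

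Receptor tyrosine kinases, which bind growth factors and guidance cues, moved in both directions. Of 52 listed, 37 were tested, with 7 rises and 11 falls of at least 2-fold and a median of -0.32. With library totals 4 rose and 13 fell. All 7 rises were growth factor receptors. Flt1, the VEGF receptor 1, rose 7.09-fold from 2.26 ± 0.514 to 16.01 ± 1.12 CPM, and Pdgfra, a PDGF receptor also counted among the adventitial fibroblast markers, 4.93-fold from 12.96 ± 1.25 to 63.9 ± 4.56 CPM. Axl, which binds the ligand Gas6, rose 2.54-fold to 1867 ± 36.3 CPM, whereas Gas6 itself fell 3.71-fold from 429.9 ± 18.3 to 116 ± 6.45 CPM. Csf1r, the M-CSF receptor and a macrophage marker, rose from 0.203 ± 0.0873 to 4.62 ± 0.515 CPM. Its ligand was in both media. The other four tested macrophage markers rose as well, and the part of macrophage RNA in this rise was not tested.

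Falls among the kinases were led by Ntrk3, the neurotrophin 3 receptor, with 67.7, 61.2, 69.1 and 68.7 CPM in naive CM and 6.75, 8.48, 5.65 and 8.26 CPM in IFNγ/LPS CM. The fall was 9.15-fold (log2 fold change -3.20, SE 0.13, adjusted p = 5.02e-10 by edgeR). Of 9 Eph receptors tested 5 fell and 0 rose at least 2-fold, with Epha4 at 11.03 ± 1.52 CPM against 32.0 ± 0.797 CPM and Epha7 at 2.72 ± 0.200 against 7.71 ± 0.404 CPM. Ror1, a receptor of Wnt5a, fell 3.16-fold to 8.16 ± 0.782 CPM, and Erbb3 2.14-fold to 5.23 ± 0.583 CPM.

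Genes for growth factors moved in both directions. Of 51 ligands listed, 38 were tested, 12 rose and 13 fell at least 2-fold. Apln (chrX:48025146-48034853), the vasodilator peptide apelin, read 1.02, 0.858, 1.38 and 1 CPM in naive CM and 87.8, 82.6, 81.6 and 87.5 CPM in IFNγ/LPS CM, 79.8-fold higher (log2 fold change 6.36, SE 0.10, adjusted p = 5.65e-21 by edgeR). Adm, adrenomedullin, another vasodilator, rose 42.9-fold to 48.1 ± 0.860 CPM. Within the VEGF family the directions split: Vegfa read 25.1, 23.1, 24.8 and 24.7 CPM in naive CM and 237, 241, 237 and 238 CPM in IFNγ/LPS CM, while Vegfd read 439.8, 435, 463 and 436 and 53.0, 49.1, 56.1 and 58.6 CPM. Vegfa thus rose 9.76-fold and Vegfd fell 8.18-fold, with no overlap for either. Ereg, the EGF family ligand epiregulin, rose 11.2-fold to 285 ± 11.5 CPM. Igf1, insulin-like growth factor 1, fell 11-fold from 42.2 ± 4.59 to 3.84 ± 1.56 CPM, and Fgf18 22-fold from 19.1 ± 1.19 to 0.867 ± 0.107 CPM.

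**Figure D3:**
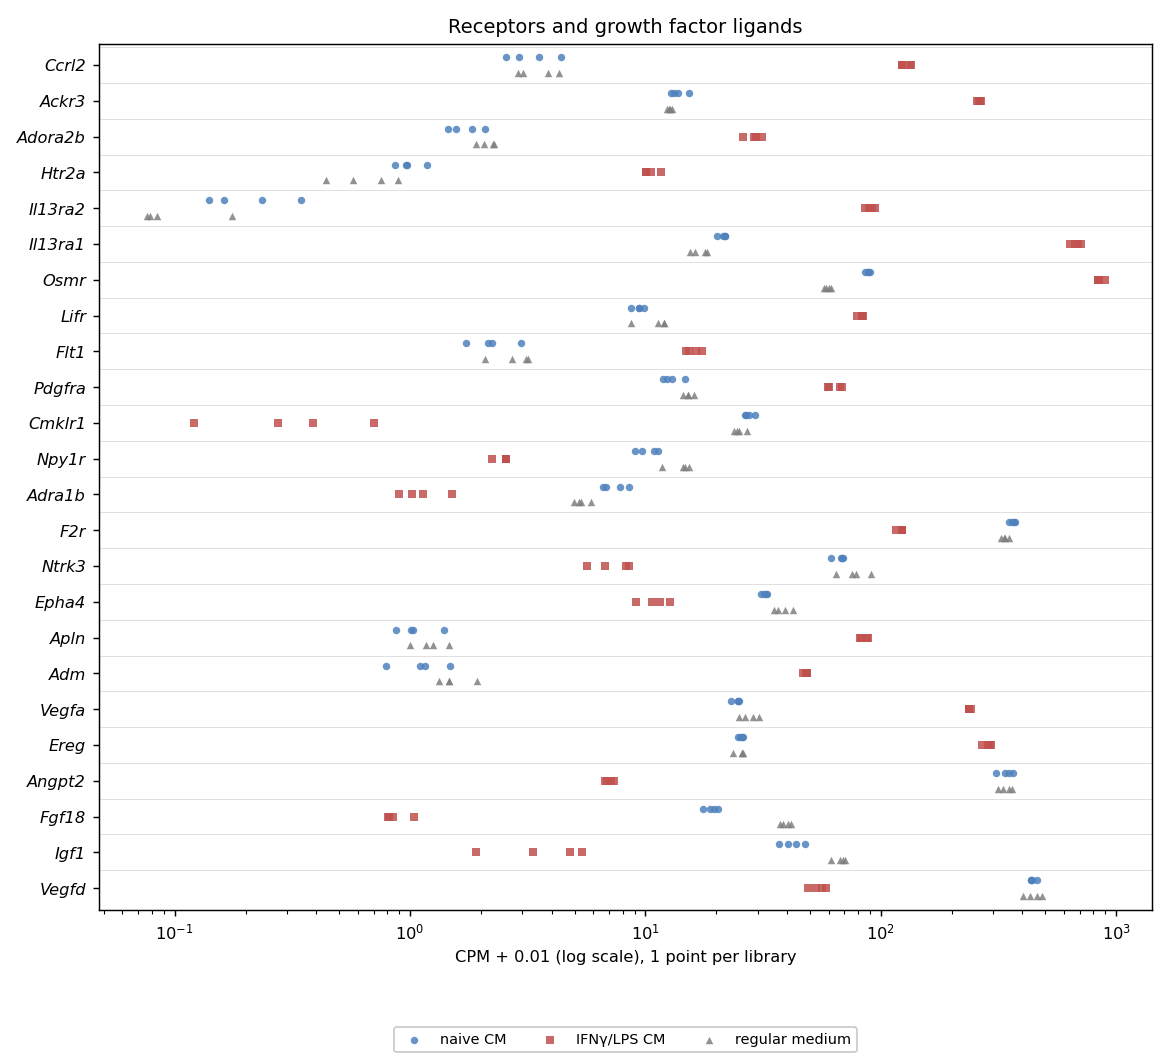
CPM plus 0.01 of 24 receptors and growth factor ligands on a log axis, 1 point per library for naive CM, IFNγ/LPS CM and regular medium. Rises stand at the top of each block and falls below them: Il13ra2 moves from under 1 CPM to 90.3 ± 3.55 CPM, and Cmklr1 from 27.5 ± 1.21 CPM to under 1 CPM.

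Wnt pathway genes leaned down. Wnt proteins bind Frizzled receptors and LRP coreceptors, R-spondins strengthen the signal through LGR receptors, and beta-catenin carries it to target genes such as the feedback inhibitors Nkd1 and Axin2. Of 70 genes listed, 44 were tested, 21 fell and 2 rose at least 2-fold, and the median was -0.99, against 0.004 for all genes. Among ligands 6 of 8 fell, among receptors 5 of 13, among secreted inhibitors 5 of 7 and among transducers and targets 5 of 16. The 2 rises were of 1 ligand and 1 secreted inhibitor.

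Rspo2 (chr15:43020794-43170826), R-spondin 2, read 9.25, 8.95, 9.82 and 9.68 CPM in naive CM and 0.242, 0.116, 0.249 and 0.295 CPM in IFNγ/LPS CM. The groups lay far apart (ratio of summed counts 41.5, exact 95% interval 29.3 to 60.9, edgeR adjusted p = 2.67e-17). Its receptor family member Lgr6 fell 10.1-fold from 23.7 ± 2.58 to 2.34 ± 0.282 CPM. Wnt4 went from 6.36 ± 0.769 to 0.498 ± 0.119 CPM (ratio of summed counts 12.4, exact 95% interval 9.77 to 15.99), and Wnt5a, a ligand of beta-catenin-independent signalling, fell 3.96-fold to 3.35 ± 0.417 CPM. Fzd2 read 71.4, 80.9, 84.4 and 83.3 CPM in naive CM and 12.6, 12.6, 9.59 and 13.3 CPM in IFNγ/LPS CM, a fall of 6.65-fold, and Fzd4 fell 4.22-fold. The feedback genes Nkd1 and Nkd2 stood at 0.191 ± 0.107 and 1.22 ± 0.338 CPM, from 5.04 ± 0.417 and 6.59 ± 0.421 CPM. Secreted Frizzled-related proteins, which bind Wnts outside the cell, split: Sfrp1 rose 6.15-fold from 51.4 ± 1.48 to 317 ± 5.18 CPM, whereas Sfrp2 fell 3.68-fold to 16.98 ± 2.44 CPM and Sfrp4 4.23-fold to 1.54 ± 0.158 CPM.

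Bone morphogenetic protein (BMP) and activin genes moved in both directions, and the sign of the median depends on the scaling. Of 34 tested, 13 rose and 6 fell at least 2-fold (median 0.24), and with library totals the counts were 10 and 10 (median -0.15). Of 12 receptors 5 rose and 0 fell at least 2-fold. Acvr1b, the activin receptor ALK4, read 25.5, 24.3, 29.6 and 26.3 CPM in naive CM and 153, 157, 157 and 158 CPM in IFNγ/LPS CM, 5.91-fold higher (log2 fold change 2.57, SE 0.06, adjusted p = 1.60e-18 by edgeR). Acvrl1, the BMP9 receptor ALK1, rose 5.24-fold to 9.02 ± 0.394 CPM. The ligand Bmp4 fell 2.17-fold to 59.4 ± 4.52 CPM. Among secreted antagonists, Fst, which traps activin, rose 5.02-fold to 98.0 ± 2.73 CPM, Bmper rose 5.79-fold to 16.3 ± 0.938 CPM and Nbl1 fell 2.85-fold to 61.0 ± 3.36 CPM.

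Guidance cues first known from axons also steer vessel cells. Of 50 tested, 11 rose and 13 fell at least 2-fold (9 and 20 with library totals). Slit2 (chr5:47983138-48307733), a repulsive ligand of ROBO receptors, read 15.1, 14.1, 14.6 and 13.7 CPM in naive CM and 442, 448, 494 and 502 CPM in IFNγ/LPS CM, a rise of 32.8-fold (log2 fold change 5.04, SE 0.06, adjusted p = 5.69e-23 by edgeR). Sema3d, a semaphorin, read 102.8, 100.4, 96.5 and 95.1 CPM and 2.91, 3.94, 3.16 and 3.83 CPM, a fall of 28.5-fold (log2 fold change -4.84, SE 0.07, adjusted p = 2.31e-21 by edgeR). The neuropilins, coreceptors of semaphorins and VEGF, moved apart: Nrp2 rose 9.92-fold from 33.7 ± 1.49 to 335 ± 12.4 CPM and Nrp1 fell 2.87-fold from 300.4 ± 11.3 to 105 ± 2.12 CPM. Efnb2, the arterial ephrin-B2, read 383, 394, 368 and 373 CPM in naive CM and 62.6, 62.5, 68.2 and 70.4 CPM in IFNγ/LPS CM, a fall of 5.76-fold.

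Transcription factor families differed in direction. Nuclear receptors, which respond to steroids, retinoids and lipids, leaned down: of 49 listed and 34 tested, 11 fell and 2 rose at least 2-fold (median -0.57). Receptors of female sex steroids were among the falls. Pgr, the progesterone receptor, read 67.7, 69.2, 75.8 and 70.0 CPM in naive CM and 4.41, 5.64, 5.46 and 6.08 CPM in IFNγ/LPS CM, 13.1-fold lower (log2 fold change -3.71, SE 0.08, adjusted p = 9.06e-19 by edgeR). Esr1, oestrogen receptor alpha, fell 3.55-fold to 11.8 ± 1.01 CPM. The glucocorticoid receptor Nr3c1 was one of the 2 rises, with 235, 239, 232 and 243 CPM in naive CM and 579.6, 562, 560.3 and 564 CPM in IFNγ/LPS CM. It rose 2.39-fold (log2 fold change 1.25, SE 0.04, adjusted p = 2.42e-16 by edgeR), and with library totals 0 nuclear receptors rose at least 2-fold. Rorb fell from 12.7 ± 1.996 to 1.17 ± 0.147 CPM and Nr2f2 (COUP-TFII), a factor of vein identity, 2.93-fold to 5.99 ± 0.807 CPM.

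Homeobox factors, which keep positional identity, also leaned down, with 10 falls and 1 rise of at least 2-fold among 46 tested of 83. The Hox A cluster had 4 of 9 tested genes lower at least 2-fold, and the Hox B cluster 0 of 8. Hoxa7 read 82.9, 80.0, 79.8 and 80.3 CPM in naive CM and 24.5, 24.7, 22.6 and 21.2 CPM in IFNγ/LPS CM, 3.47-fold lower. Hoxa5 fell 2.92-fold to 12.5 ± 0.741 CPM and Hoxa2 9.13-fold to 0.976 ± 0.211 CPM. No Hox D gene had enough counts. Prrx1, a factor of mesenchymal cells, was the single rise, 2.29-fold to 359 ± 20.4 CPM. With library totals 0 homeobox genes rose and 19 fell at least 2-fold, 7 of them in the Hox A and 2 in the Hox B cluster. Leaving out naive CM replicate 2 or 4 gave 2 rises, and testing without a filter gave 3.

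Among forkhead, SOX, T-box and GATA factors 14 of 38 tested fell and 6 rose at least 2-fold. Sox4 read 257, 248, 247 and 242 CPM in naive CM and 31.3, 33.0, 27.9 and 29.6 CPM in IFNγ/LPS CM, 8.17-fold lower (log2 fold change -3.03, SE 0.05, adjusted p = 1.20e-20 by edgeR). Sox9, the cartilage factor, fell 5.77-fold to 2.58 ± 0.708 CPM, and 4 of 6 tested SOX genes fell at least 2-fold. Foxm1, which drives mitotic genes, fell 6.01-fold from 54.7 ± 2.80 to 9.10 ± 2.21 CPM. Foxs1, a forkhead factor known from pericytes, rose 14.6-fold from 2.03 ± 0.348 to 29.7 ± 0.707 CPM and Foxf1 4.33-fold to 14.5 ± 0.914 CPM. Gata4 fell 3.25-fold to 1.95 ± 0.312 CPM.

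Of 33 tested factors with bZIP domains, among them stress and circadian output regulators, 14 rose and 8 fell at least 2-fold (median 0.71). With library totals the counts were 7 and 8 (median 0.32). The C/EBP and stress role leaned up, with 7 rises and 1 fall among 19 tested (median 0.71). The MAF, CNC and PAR role did not, with 7 rises and 7 falls among 14 tested (median -0.06). With library totals these roles had 5 rises and 1 fall, and 2 rises and 7 falls. Cebpd read 12.5, 11.5, 12.9 and 12.5 CPM in naive CM and 106, 113, 101.2 and 124 CPM in IFNγ/LPS CM, 8.99-fold higher (log2 fold change 3.17, SE 0.28, adjusted p = 2.71e-06 by edgeR). Cebpb rose 5.86-fold to 43.0 ± 5.85 CPM, Crem, a cyclic AMP responsive factor, 6.88-fold to 81.4 ± 1.703 CPM, and Atf4, the factor of the integrated stress response, 4.04-fold to 423 ± 15.96 CPM. The circadian pair of factors that bind the same D-box element moved in opposite directions. Nfil3, the repressor, read 7.07, 6.62, 7.09 and 6.95 CPM and 78.8, 77.0, 78.6 and 78.5 CPM, a rise of 11.3-fold, and Dbp, the activator, read 26.9, 27.1, 30.2 and 24.5 CPM and 3.63, 2.89, 3.44 and 3.39 CPM, a fall of 8.14-fold. Maf fell 6.82-fold, whereas Bach1 and Nfe2l2 (NRF2), which compete at antioxidant response elements, rose 3.38-fold and 2.18-fold.

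The mixed list of bHLH, ETS and zinc finger factors had 19 rises and 14 falls of at least 2-fold among 72 tested, with a median of 0.15 that turned to -0.24 with library totals. Hif1a, the oxygen-regulated factor, read 327, 340.3, 330.3 and 338 CPM in naive CM and 1612, 1627, 1605 and 1531 CPM in IFNγ/LPS CM, 4.77-fold higher (log2 fold change 2.25, SE 0.04, adjusted p = 9.74e-20 by edgeR). All IFNγ/LPS CM libraries lay above all naive CM libraries. Ahrr, the repressor of the aryl hydrocarbon receptor, rose from 0.293 ± 0.107 to 5.25 ± 0.337 CPM (ratio of summed counts 19.1, exact 95% interval 14.5 to 25.6). Of the MYC antagonists, Mxi1 rose 2.91-fold to 88.2 ± 3.24 CPM and Mxd3 fell 19.1-fold to 1.24 ± 0.334 CPM. Hey2, a Notch target that marks arteries, read 101.7, 93.0, 87.5 and 90.8 CPM and 5.35, 5.24, 4.91 and 6.40 CPM, 17.04-fold lower (log2 fold change -4.09, SE 0.07, adjusted p = 3.66e-20 by edgeR). Osr1, a factor of mesenchymal progenitors, fell 8.03-fold from 122 ± 5.94 to 15.2 ± 0.951 CPM. The ETS factors Elf1 and Ehf rose 3.26-fold and 7.41-fold, and Etv1 fell 3.68-fold.

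**Figure D4:**
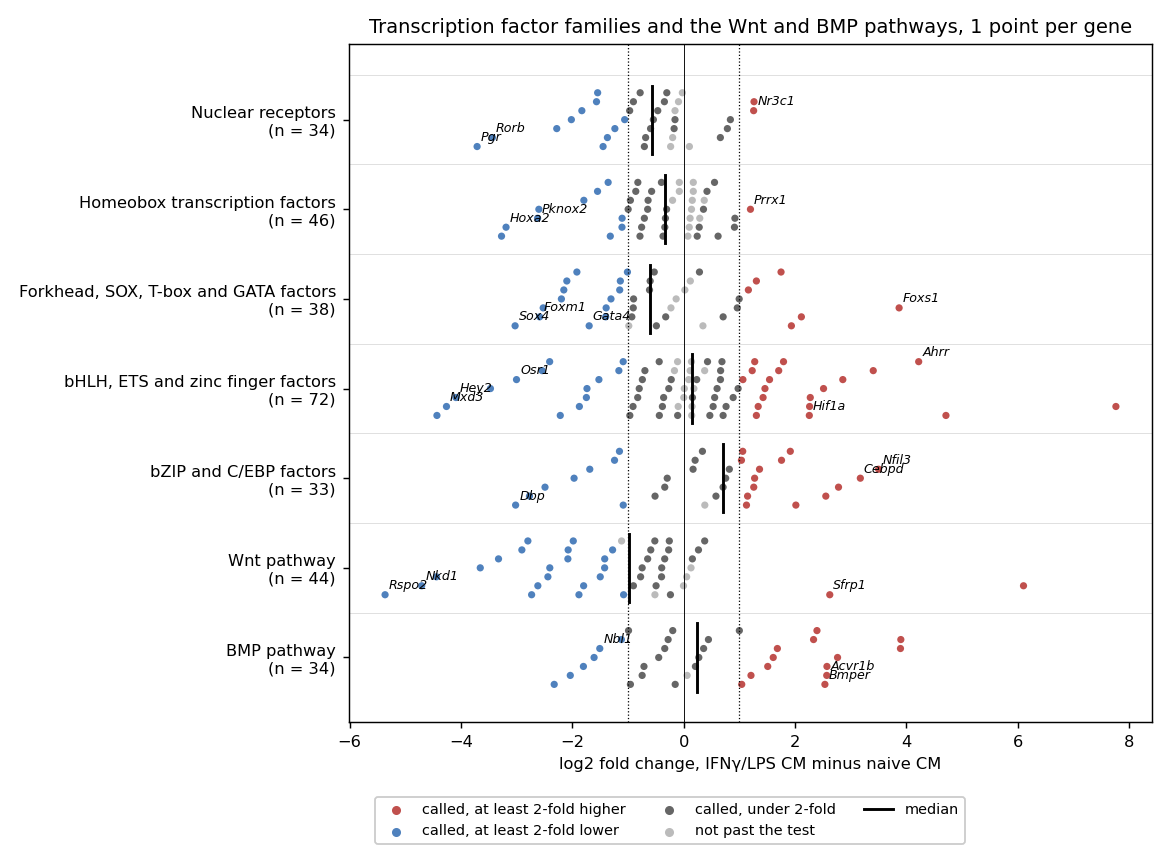
Log2 fold change (IFNγ/LPS CM minus naive CM) of each tested member of 5 transcription factor lists and the Wnt and BMP pathways, 1 point per gene, coloured by call, with the list median as a bar and dotted lines at a 2-fold change. The medians run from -0.99 for the Wnt pathway to 0.71 for bZIP and C/EBP factors.

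Nitric oxide relaxes smooth muscle by activating soluble guanylate cyclase, whose product cyclic GMP acts through protein kinase G. Of 31 cyclic nucleotide genes tested, 13 fell and 8 rose at least 2-fold (median -0.75), and the cyclases and kinases made up 10 of the falls among 17 tested. Gucy1a1, the alpha subunit of soluble guanylate cyclase, read 76.3, 72.1, 70.6 and 72.2 CPM in naive CM and 14.99, 15.9, 17.5 and 18.3 CPM in IFNγ/LPS CM. Gucy1b1, the beta subunit, read 32.9, 31.9, 29.5 and 33.0 CPM and 4.90, 6.77, 5.99 and 6.55 CPM. Both subunits were lower in all IFNγ/LPS CM libraries, by 4.37-fold and 5.26-fold (edgeR adjusted p = 7.25e-17 and 4.01e-15). Prkg1, protein kinase G1, fell 3.50-fold to 3.49 ± 0.214 CPM and its substrate gene Mrvi1, which couples it to calcium release, fell from 5.39 ± 0.577 to 0.402 ± 0.108 CPM (ratio of summed counts 13.5, exact 95% interval 10.4 to 18.0).

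On the cyclic AMP side, Adcy5, an adenylate cyclase of muscle, fell 11.3-fold from 29.2 ± 1.33 to 2.59 ± 0.194 CPM, while Adcy3 rose 2.41-fold to 41.6 ± 1.47 CPM. Phosphodiesterases, which break cyclic nucleotides down, had 5 rises and 3 falls of at least 2-fold among 14, and 6 falls with library totals. Pde4b read 9.07, 9.30, 10.6 and 10.5 CPM in naive CM and 126, 127, 123 and 110.2 CPM in IFNγ/LPS CM, 12.3-fold higher. Pde2a rose 15.3-fold to 23.9 ± 1.20 CPM, and Pde3a fell 2.51-fold to 11.4 ± 1.52 CPM.

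Of 58 ion channel genes tested 16 rose and 18 fell at least 2-fold. Cacna1c, the pore of the L-type calcium channel that admits the calcium for contraction, read 25.1, 24.1, 23.3 and 24.2 CPM in naive CM and 2.61, 2.87, 2.36 and 2.71 CPM in IFNγ/LPS CM. It fell 9.17-fold (log2 fold change -3.20, SE 0.08, adjusted p = 8.04e-18 by edgeR). Abcc9 and Kcnj8, the regulatory and pore subunits of the vascular ATP-sensitive potassium channel, fell 12.2-fold to 0.762 ± 0.136 CPM and 4.25-fold to 1.94 ± 0.234 CPM. Ano1, the calcium-activated chloride channel, read 302, 303, 302 and 310.2 CPM and 46.7, 49.7, 46.3 and 46.1 CPM, a fall of 6.45-fold. A T-type calcium channel, Cacna1h, rose from 3 counts in naive CM to 7.14 ± 0.936 CPM. Among gap junction proteins Gja4 (connexin 37) rose 17.7-fold from 4.26 ± 0.674 to 75.6 ± 2.73 CPM and Gja1 (connexin 43) fell 2.10-fold to 80.0 ± 1.87 CPM.

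Of 44 genes of pyruvate entry and the tricarboxylic acid (TCA) cycle, 4 rose and 4 fell at least 2-fold (median -0.20), both below the shares over all genes. With library totals 3 rose and 10 fell. By the test alone 17 of 26 cycle enzymes were lower and 3 higher. Idh2 (chr7:80094846-80115392), the mitochondrial NADP-dependent isocitrate dehydrogenase, read 95.1, 92.6, 91.4 and 90.3 CPM in naive CM and 13.05, 13.3, 12.4 and 12.6 CPM in IFNγ/LPS CM. It fell 7.19-fold (log2 fold change -2.85, SE 0.06, adjusted p = 2.97e-19 by edgeR), and its cytosolic counterpart Idh1 fell 2.27-fold to 132 ± 7.83 CPM. Cs, citrate synthase, fell 1.77-fold. Pdk1, a kinase that switches off pyruvate dehydrogenase, read 50.1, 53.0, 53.4 and 50.9 CPM and 417, 408, 408 and 418 CPM, a rise of 7.96-fold (log2 fold change 2.99, SE 0.04, adjusted p = 9.20e-22 by edgeR). Pdk3 rose 3.05-fold and Pdk2 fell 2.71-fold, so the kinase isoforms did not move as one.

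Of 64 fatty acid genes tested 10 rose and 11 fell at least 2-fold. These shares, 15.6% and 17.2%, lay near those over all genes, 13.9% and 15%. With library totals 6 rose and 18 fell. Synthesis enzymes were among the falls: Fasn, fatty acid synthase, fell 2.36-fold to 88.5 ± 7.97 CPM, Scd1, stearoyl-CoA desaturase, 3.13-fold to 120.2 ± 6.37 CPM, and Elovl6, an elongase, 4.13-fold to 6.64 ± 0.621 CPM. Genes of triglyceride storage were among the rises. Dgat2, which makes the last step of triglyceride synthesis, read 1.102, 1.13, 1.25 and 1.34 CPM in naive CM and 36.3, 38.1, 35.3 and 34.8 CPM in IFNγ/LPS CM, 30.0-fold higher (log2 fold change 4.90, SE 0.09, adjusted p = 4.11e-20 by edgeR). Hilpda, which inhibits lipolysis on lipid droplets, rose 15.2-fold to 92.4 ± 4.63 CPM. The droplet coat genes moved apart, with Plin2 2.39-fold higher at 199 ± 9.67 CPM and Plin4 5.85-fold lower at 55.8 ± 3.34 CPM. Among 30 oxidation genes 1 rose at least 2-fold, Cpt1a (2.22-fold), which lets fatty acids into mitochondria, and 3 fell, Acaa2 among them (3.18-fold). With library totals these counts were 0 and 6.

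Tryptophan and nicotinamide adenine dinucleotide (NAD) genes leaned up, with 7 rises and 1 fall of at least 2-fold among 25. Leaving out a library gave 1 or 2 falls. Nampt, which limits NAD salvage, read 146, 139.8, 135 and 137 CPM in naive CM and 834, 829, 796 and 796 CPM in IFNγ/LPS CM, 5.84-fold higher (log2 fold change 2.55, SE 0.04, adjusted p = 2.98e-20 by edgeR). Bst1 (CD157), an ectoenzyme that cleaves NAD, read 0, 0.0485, 0.0642 and 0.0170 CPM and 20.6, 19.9, 22.3 and 20.6 CPM (ratio of summed counts 695, exact 95% interval 319 to 1894). All 4 IFNγ/LPS CM libraries lay above all naive CM libraries for both genes. Ido2, a tryptophan-degrading dioxygenase, went from 0.403 ± 0.0751 to 22.2 ± 2.47 CPM, and Wars, the tryptophan-tRNA ligase, rose 6.17-fold to 316 ± 4.33 CPM.

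One-carbon and related amino acid genes had 10 falls and 6 rises of at least 2-fold among 46, and 19 falls with library totals. The share of falls was 21.7%, against 15% of all genes. That of rises was 13%, near the 13.9% of all genes, and the median was -0.45. The largest rise of that role was Mthfd1l, the mitochondrial formate-producing enzyme, with 29.4, 30.5, 32.1 and 29.9 CPM in naive CM and 315, 312, 317 and 311 CPM in IFNγ/LPS CM (10.3-fold, log2 fold change 3.37, SE 0.06, adjusted p = 2.28e-20 by edgeR). Gpt2, an alanine transaminase, rose 6.42-fold to 169 ± 4.50 CPM. In arginine metabolism Arg2, the mitochondrial arginase, rose to 7.69 ± 1.03 CPM from 3 counts, and the creatine genes Ckb and Gamt fell 15.1-fold to 4.48 ± 0.691 CPM and 8.72-fold to 2.16 ± 0.273 CPM.

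Genes of nucleotide metabolism moved in both directions. Among 43 purine and pyrimidine genes tested 8 rose and 8 fell at least 2-fold (18.6% each, against 13.9% and 15% of all genes). Xdh, xanthine dehydrogenase, which makes uric acid, read 6.92, 6.16, 6.26 and 5.32 CPM in naive CM and 416, 409, 439 and 426 CPM in IFNγ/LPS CM, a rise of 68.5-fold (log2 fold change 6.10, SE 0.09, adjusted p = 6.45e-18 by edgeR). Upp1, uridine phosphorylase, rose 119.9-fold to 135 ± 8.48 CPM and Pnp, purine nucleoside phosphorylase, 7.04-fold to 765 ± 41.9 CPM. Samhd1, which hydrolyses deoxynucleotides, rose 41.3-fold to 1771 ± 121 CPM. Tk1, the thymidine kinase of S phase, read 71.5, 75.5, 79.3 and 77.7 CPM and 5.78, 6.05, 6.29 and 9.38 CPM, a fall of 11.1-fold, and Rrm1, a ribonucleotide reductase subunit, fell 3.72-fold to 51.0 ± 5.55 CPM. In regular medium Tk1 was at 17.9 ± 2.98 CPM. Of the pentose phosphate pathway, Pgd rose 2.68-fold to 275 ± 12.6 CPM and Taldo1 2.21-fold to 194 ± 10.1 CPM.

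**Figure D5:**
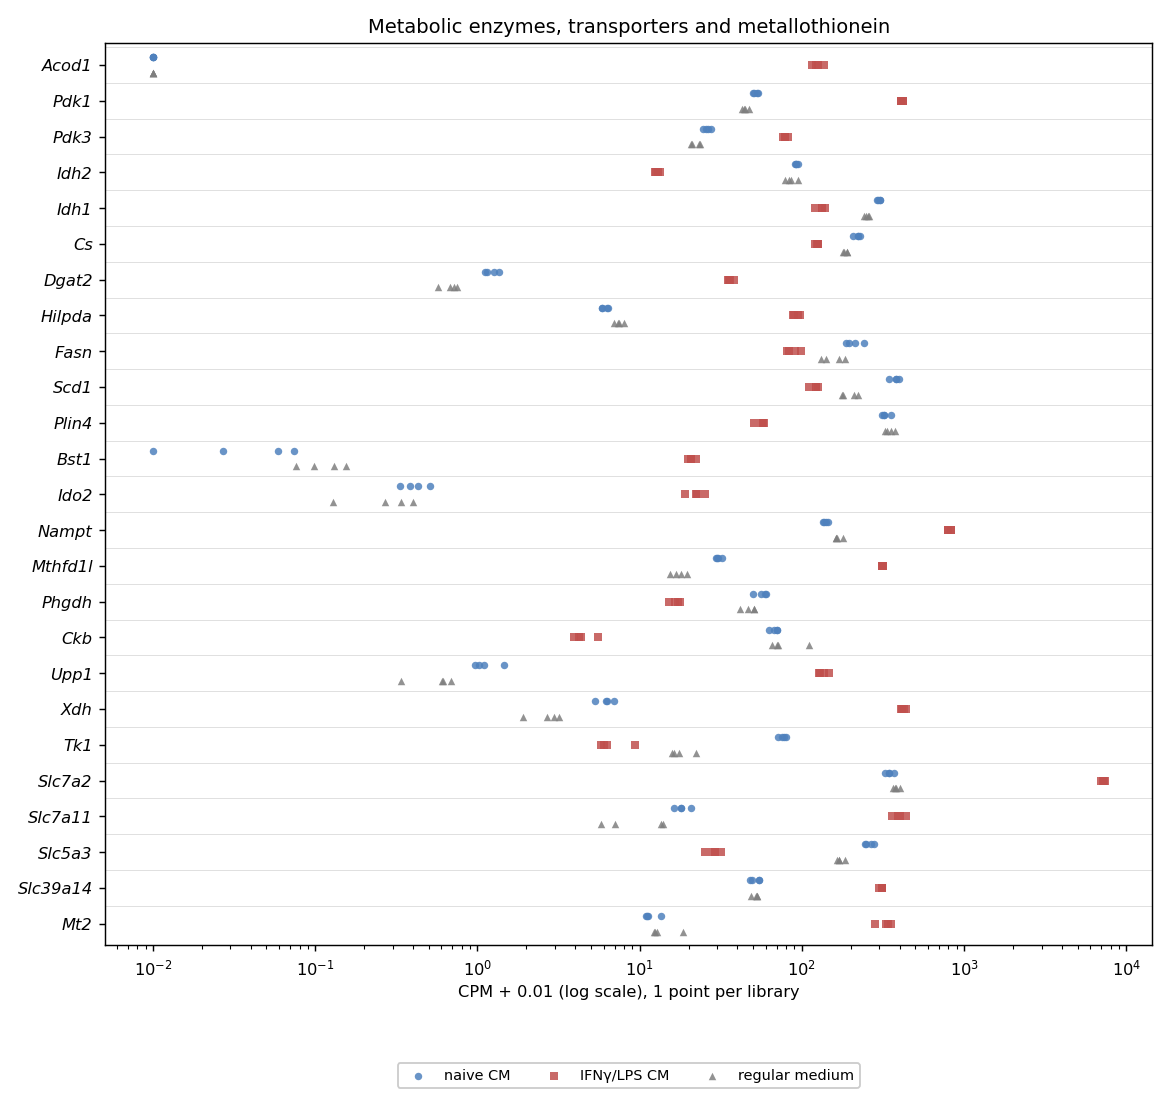
CPM plus 0.01 of 25 metabolic enzymes, transporters and metallothionein 2 on a log axis, 1 point per library for naive CM, IFNγ/LPS CM and regular medium. Acod1 sits at 0 CPM in both control groups, and Idh2 shows the falling pattern, from 92.3 ± 2.07 to 12.8 ± 0.441 CPM.

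Solute carriers, the membrane transporters of nutrients and metals, leaned up with TMM. Of 88 listed genes, with metallothioneins counted among them, 68 were tested, 22 rose and 7 fell at least 2-fold (median 0.38). With library totals the counts were 18 and 12 and the median -0.01. Slc7a2 (chr8:40862396-40922308), a cationic amino acid transporter that carries arginine, read 368, 346, 326 and 344 CPM in naive CM and 7261, 7371, 7216 and 7001 CPM in IFNγ/LPS CM. It rose 20.8-fold (log2 fold change 4.38, SE 0.05, adjusted p = 7.98e-23 by edgeR). Slc7a11, the cystine-glutamate exchanger, rose 21.9-fold to 398 ± 30.6 CPM. Sugar and lactate carriers included rises of Slc2a1 (GLUT1, 9.79-fold), Slc16a3 (MCT4, 12.4-fold) and Slc16a1 (MCT1, 6.27-fold). Slc5a3, the sodium-coupled inositol transporter, read 277, 249.3, 265 and 245 CPM and 28.4, 28.9, 25.3 and 31.6 CPM, a fall of 9.07-fold (log2 fold change -3.18, SE 0.06, adjusted p = 1.28e-18 by edgeR).

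Metal handling genes had 9 rises and 1 fall of at least 2-fold among 25 tested. Mt2, a metallothionein that binds zinc, read 11.3, 11.1, 13.5 and 10.9 CPM in naive CM and 341, 354, 281 and 330.1 CPM in IFNγ/LPS CM, 27.9-fold higher (log2 fold change 4.81, SE 0.15, adjusted p = 9.99e-11 by edgeR). Its neighbour Mt1 rose 10.2-fold to 489 ± 51.2 CPM, and the division of reads between these near copies is uncertain. Slc39a14 (ZIP14), which imports zinc and iron, rose 5.99-fold to 309 ± 6.09 CPM, and Slc39a4 (ZIP4) reached 10.7 ± 1.503 CPM from 8 counts. Slc40a1, ferroportin, the iron exporter, fell 4.74-fold to 1.08 ± 0.0807 CPM.

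Metal-responsive promoters carry copies of a short element read by the factor MTF1, with the core TGCACNC or TGCGCNC. The Mt2 promoter is shown because its gene rose strongly from a level measured in every naive CM library. Slc39a4, of the same role, rose by a larger factor, from 8 counts. The sequence is from RefSeq, build GRCm38.p6, plus strand, chr8:94172368-94172667, 250 bases before and 50 from the start of the gene, with matches of the core on either strand in capitals.
Mt2: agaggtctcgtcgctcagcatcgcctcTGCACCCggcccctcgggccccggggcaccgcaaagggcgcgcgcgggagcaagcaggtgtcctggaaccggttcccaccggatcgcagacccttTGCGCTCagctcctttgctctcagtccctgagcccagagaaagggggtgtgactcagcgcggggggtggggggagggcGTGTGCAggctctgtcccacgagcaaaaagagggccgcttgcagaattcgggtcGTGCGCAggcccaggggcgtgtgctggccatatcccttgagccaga
The window held 4 matches. The core was found in 14 of 25 metal genes with a promoter window (56%) and in 28.2% of all 27025 genes with one. A gene counted if any of its windows held a match. In the proliferation list described next the share was 51.6%, above that of all genes with a promoter as well. The motif ACGTG, the core read by hypoxia-inducible factors, was found in 52% of the metal genes. It was found in 35.5% of the proliferation list and 21.8% of all genes with a promoter. A match is a description of letters and not evidence of binding.

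Proliferation genes fell throughout. All 40 listed genes of DNA replication and mitosis were tested, all were lower by the test, and 32 were lower at least 2-fold (80%, against 15% of all genes), with a median of -2.08. With library totals 37 were lower at least 2-fold. Cenpf, a kinetochore protein of mitosis, read 156, 154, 153 and 158 CPM in naive CM and 8.34, 8.25, 7.57 and 10.9 CPM in IFNγ/LPS CM. Ccnb2, cyclin B2, read 58.9, 57.4, 66.6 and 64.2 CPM and 3.26, 4.11, 3.77 and 5.99 CPM. The libraries of the groups were far apart for both, with falls of 17.7-fold for Cenpf (log2 fold change -4.15, SE 0.08, adjusted p = 2.34e-17 by edgeR) and 14.4-fold for Ccnb2 (log2 fold change -3.85, SE 0.18, adjusted p = 3.22e-09 by edgeR). Mki67 fell 9.06-fold and Top2a 6.36-fold. In regular medium Mki67 stood at 67.8 ± 6.33 CPM and Top2a at 127 ± 21.7 CPM, against 249.2 ± 12.05 and 502 ± 12.6 CPM in naive CM and 27.5 ± 6.26 and 78.9 ± 15.3 CPM in IFNγ/LPS CM. Ccnd1, cyclin D1, which is not on that list, read 1171, 1206, 1346 and 1256 CPM in naive CM and 349, 370.0, 363 and 393 CPM in IFNγ/LPS CM, a fall of 3.37-fold.

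The promoters of Cenpf and Ccnb2 are shown because these genes fell most on the list and late cell cycle genes are known for 2 promoter elements, the CCAAT box and the cell cycle gene homology region with the core TTTGAA. Both are from RefSeq, build GRCm38.p6, minus strand, written 5′ to 3′ along the gene from 250 bases before to 50 from its start, at chr1:189688037-189688336 for Cenpf and chr9:70421505-70421804 for Ccnb2. Capitals mark CCAAT and TTTGAA, sought on both strands, and no match overlaps another here.
Cenpf: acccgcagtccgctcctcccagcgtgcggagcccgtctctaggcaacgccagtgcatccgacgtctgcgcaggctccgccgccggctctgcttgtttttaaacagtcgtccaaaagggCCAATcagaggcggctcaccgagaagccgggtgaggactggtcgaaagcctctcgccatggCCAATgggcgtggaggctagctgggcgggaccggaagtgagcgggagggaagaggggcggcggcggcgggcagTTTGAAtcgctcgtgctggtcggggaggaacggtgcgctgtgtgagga
Ccnb2: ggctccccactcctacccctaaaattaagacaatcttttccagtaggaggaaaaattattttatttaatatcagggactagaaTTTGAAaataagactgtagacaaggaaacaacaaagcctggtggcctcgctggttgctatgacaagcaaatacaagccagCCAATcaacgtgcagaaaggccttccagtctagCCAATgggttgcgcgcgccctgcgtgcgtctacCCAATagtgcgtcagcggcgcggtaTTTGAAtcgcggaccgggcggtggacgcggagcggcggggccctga
TTTGAA was found in 15 of 31 proliferation genes with a promoter window (48.4%) and in 20.2% of all genes with one. CCAAT was found in 25 of 31 (80.6%) and in 41.1% of all genes with a promoter window. The same motifs were found in 16% and 40% of the metal genes.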

How the data were processed

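Polyadenylated RNA from aortic smooth muscle cells of mice was made into stranded libraries and sequenced in paired reads of 150 bp, per the labels' protocols. Expression was estimated with Salmon 1.10.1 on mm10, per the submitters' processing notes. The authors deposited 1 table of estimated counts (expected counts) per Ensembl gene, as whole numbers. The annotation release, the summing of transcripts to genes and the rounding are not given in these sources. Estimated counts can divide reads unevenly among near-identical genes. Columns were joined to the sample titles by name, where M0 and M1 were taken, by common usage and with no label explaining them, as naive and as IFNγ/LPS medium.

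Symbols and coordinates came from GENCODE M21 (GRCm38, the same build as mm10), which matched 51344 of 55822 identifiers (92%). Identifiers without a symbol held 3.529 to 5.862% of counts. No replicate pair agreed within sampling noise.

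All 12 libraries entered 1 model in R 4.3.3: edgeR 4.0.16 filterByExpr, TMM scaling and the two-sided quasi-likelihood F-test (robust, 9 residual degrees of freedom), with Benjamini-Hochberg adjustment over 16140 genes at a threshold of 0.05. SE values were approximated by dividing the size of the log2 fold change by the root of the F statistic. Where the lower group held at most 100 counts, the ratio of summed counts has an exact 95% interval, and a group at 0 was given 3 counts in total for a lower bound. Both cover counting error only. The code was tested on simulated data. Promoter windows came from RefSeq, and motif shares were counted in Python 3.11.15.

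Gene lists are described by counts and medians, without a test. Members and lists were chosen with earlier results of these data known. Named genes needed at least 5 CPM in the higher group, a called change of at least 2-fold and no overlap between groups: the 2 largest rises and falls of each role in a list, the 20 largest falls of all genes with at least 10 CPM, the 15 largest rises with at least 10 CPM outside interferon and related symbols, and the 10 largest drops and gains in CPM. Part of these are given, and some genes are not reported here. A further 72 genes named here or plotted lie outside it and were picked with their values known. Alternatives were DESeq2 1.42.0 size factors and Wald test, library totals, no or a stricter filter, a fit of only 2 groups, the replicate number as a block, a limit of 10 CPM for lost transcripts, each library left out in turn and, chosen after seeing the data, a test against a minimum fold of 2. The regular medium comparison was not analysed here.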

Additional observations from a re-analysis of the deposited data

Results flagged for a closer look

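In 22 of 399 sets of 4 libraries searched, over 228 genes named or plotted, 1 library lay apart from the other three by more than Dixon's 95% critical value for the gap over the range. Chance alone marks about 1 set in 20. These are values to look at again, with no test of a cause. Among the IFNγ/LPS CM libraries 1 stood above the rest for Epha7 in replicate 3 (3.02 CPM, nearest other library 2.65 CPM), Foxm1 in replicate 4 (12.4 CPM, nearest other library 8.36 CPM) and Gata4 in replicate 3 (2.41 CPM, nearest other library 1.83 CPM). In IFNγ/LPS CM 1 library stood above the rest for Elf1 in replicate 2 (281 CPM, nearest other library 269 CPM), Cacna1h in replicate 4 (8.53 CPM, nearest other library 6.86 CPM) and Ano1 in replicate 2 (49.7 CPM, nearest other library 46.7 CPM). For IFNγ/LPS CM 1 library lay above the rest for Tk1 in replicate 4 (9.38 CPM, nearest other library 6.29 CPM), Prss35 in replicate 4 (0.914 CPM, nearest other library 0.376 CPM) and Trem2 in replicate 1 (6.32 CPM, nearest other library 5.32 CPM). Within IFNγ/LPS CM 1 library lay below the rest for Npy1r in replicate 2 (2.23 CPM, nearest other library 2.54 CPM), Lifr in replicate 4 (79.1 CPM, nearest other library 83.5 CPM) and Ahrr in replicate 4 (4.75 CPM, nearest other library 5.38 CPM). Among the IFNγ/LPS CM libraries 1 stood below the rest for Kcnj8 in replicate 4 (1.59 CPM, nearest other library 2.03 CPM) and F2r in replicate 1 (116 CPM, nearest other library 123 CPM). In naive CM 1 library stood above the rest for Nr2f2 in replicate 3 (20 CPM, nearest other library 16.8 CPM), Hoxa7 in replicate 1 (82.9 CPM, nearest other library 80.3 CPM) and Ano1 in replicate 4 (310 CPM, nearest other library 303 CPM). For naive CM 1 library lay above the rest for Mt2 in replicate 3 (13.5 CPM, nearest other library 11.3 CPM), Samhd1 in replicate 3 (46.2 CPM, nearest other library 42.1 CPM) and Mt1 in replicate 3 (52.2 CPM, nearest other library 47.1 CPM). Within naive CM 1 library lay below the rest for Sfrp2 in replicate 1 (60.1 CPM, nearest other library 63.1 CPM) and Nrp1 in replicate 3 (284 CPM, nearest other library 305 CPM).

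IFNγ/LPS CM replicate 4 accounts for 7 of the 22 and naive CM replicate 3, the naive CM library with the fewest counts, for 5. Of these values 0 lay inside the range of the other medium. For genes named by the rule this was fixed in advance, because the rule requires no overlap between the groups.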

How the results depend on the processing

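Depth limits statements on genes under 1 CPM, where a library held few counts. Library totals in place of TMM moved the median log2 fold change from 0.004 to -0.383 and gave 3279 genes higher and 9371 lower, with 3664 lower at least 2-fold. Of calls 50.2% were higher with TMM and 25.9% with library totals. Which scaling is closer to the RNA content of the cells was not tested. Library totals also gave 43 lost transcripts, and a limit of 10 CPM gave 8, against 25. The total number of calls stayed between 10057 and 12650 over the alternatives that kept all libraries and tested against no change, and calls of at least 2-fold between 3576 and 5905. The added test against a minimum fold of 2 called 3670, 1830 higher and 1840 lower.

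Leaving out 1 library at a time gave 11275 to 11958 calls, 5649 to 6000 higher and 5617 to 5958 lower. At least 2-fold there were 4731 to 4840 calls, 2260 to 2355 higher and 2437 to 2498 lower. Lost transcripts numbered 22 to 30 and gained ones 124 to 134.

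Replicate numbers were not treated as pairs: the correlations of same-numbered deviations were 0.0101, 0.000125, 0.0221 and -0.134, none over 0.1. With the replicate number as a block 10057 genes were called (5037 higher, 5020 lower) and 4530 at least 2-fold (2234 and 2296). With the block Lyz2 did not pass, at a log2 fold change of 1.699 (edgeR adjusted p = 0.0532).

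The 156 genes named by the rule had 2964 values under the alternatives, of which 2964 kept direction and call, 0 lost the call and 0 reversed. These genes were picked for large called changes in the same libraries, so keeping the call was likely from the start. Of list counts 2806 were within 1.5 times the main count and 120 were not, 45 of these with library totals. Cnn1 did not pass the main test and passed in 4 alternatives, by log2 fold changes of -1.52 to -2.33.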

Other observations

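Among the 25 lost transcripts, several not described above encode signalling proteins, and the genes in these paragraphs were chosen after their values were seen. Bmx, a TEC family tyrosine kinase, went from 7.92 ± 0.484 to 0.0994 ± 0.0618 CPM (ratio of summed counts 80.4, exact 95% interval 47.8 to 147, edgeR adjusted p = 3.26e-15). Camk2b, the beta subunit of calcium and calmodulin-dependent kinase II, went from 6.02 ± 0.752 to 0.304 ± 0.0988 CPM, and Ppp1r1b (DARPP-32), an inhibitor of protein phosphatase 1, from 5.75 ± 0.328 to 0.177 ± 0.152 CPM. Pipox, a peroxisomal oxidase of sarcosine and pipecolate, went from 6.90 ± 0.669 to 0.0770 ± 0.0342 CPM and Cntnap2, a neurexin family adhesion protein, from 5.48 ± 0.428 to 0.0636 ± 0.0267 CPM. In regular medium Bmx stood at 4.68 ± 0.706, Camk2b at 6.04 ± 0.383 and Pipox at 5.90 ± 0.594 CPM. Below the 5 CPM limit, Kcnh2, a potassium channel, fell from 3.65 ± 0.188 to 0.0560 ± 0.0520 CPM, and Oxtr, the oxytocin receptor, from 1.22 ± 0.161 to 0.0279 ± 0.0323 CPM. Oxtr was at 0.258 ± 0.0782 CPM in regular medium.

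Gained transcripts included genes best known from other cells. Slpi, a secreted inhibitor of leukocyte proteases, rose from 43 counts in naive CM to 110.0 ± 10.7 CPM (ratio of summed counts 512, exact 95% interval 380.3 to 708). Olr1, the scavenger receptor LOX-1 for oxidised lipoprotein, reached 28.6 ± 2.20 CPM from 0.283 ± 0.0640 CPM, and Apod, the lipid carrier apolipoprotein D, 29.0 ± 0.848 CPM from 0.173 ± 0.0551 CPM. Sele, the endothelial adhesion protein E-selectin, reached 6.48 ± 0.677 CPM from 5 counts, and among 10 endothelial markers Tek rose to 2.18 ± 0.331 CPM and the others had means of at most 0.588 CPM in either group. Trem2 (5.52 ± 0.543 CPM), Chil1 (9.73 ± 1.38 CPM) and Mmp12 (5.27 ± 0.995 CPM), known from macrophages, rose from 6, 6 and 13 counts, as did all 5 macrophage markers that could be tested, while the other 9 had means of at most 0.169 CPM. The part of RNA from other cells in these rises was not tested. Serpinb2, an inhibitor of plasminogen activators, reached 18.3 ± 1.59 CPM from 0.199 ± 0.119 CPM. Ndufa4l2, a mitochondrial protein known from hypoxia, reached 5.08 ± 0.862 CPM and Myt1l, a neuronal zinc finger factor, 6.15 ± 0.898 CPM from 2 counts. Below the 5 CPM limit again, Ptgfr, the prostaglandin F receptor, rose from 2 counts to 1.59 ± 0.371 CPM.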
